A study of Rattus norvegicus with 12 samples.

Results

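The genes of the oxygen-sensing switch of the cell were compared between A16 and Colony cells. They comprise the alpha subunits of the hypoxia inducible factor HIF (Hif1a, Epas1 and Hif3a), their beta partners (Arnt and Arnt2), the hydroxylases that mark the alpha subunits (Egln1, Egln2, Egln3 and Hif1an) and the recognition subunit Vhl. The genes were taken by name, a set drawn up with earlier results of these data known, and no threshold on the values was used. Every probe set whose array annotation gives 1 of these symbols alone was taken, which gave 12 probe sets for 9 of the 10 genes, out of 31042 probe sets and 14217 named genes. Hif1an has no such probe set and was not analysed here.

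The F111 cells are Fischer rat fibroblasts, a cell line grown in DMEM with 10% FCS. A16 cells had been kept adherent on plastic for 16 h. Colony cells go back to NA16 cells, which had stayed alive in suspension and were then grown in soft agar for 7 days, after which the cells of the colonies were let out of the agar and allowed to attach for a short period. RNA was hybridised to Affymetrix rat arrays, 3 per group, named biological replicate 1, biological replicate 2 and technical replicate 2. The labels give no biological number for the technical arrays, so each was joined to biological replicate 1 by the mean of their log2 values, which leaves n = 2 cultures per group. One label field of Colony biological replicate 2 names tumour formation while the others name colony cells. The array stayed in the Colony group, and values without it are given below for each gene. The p-values of limma set a difference against the spread between these few cultures, moderated by the spread over all probe sets. The difference between the groups joins the time in suspension, the growth in agar and the later attachment, which cannot be told apart. NA16 and tumour arrays are not analysed here.

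HIF is a transcription factor made of an alpha and a beta subunit, both with bHLH-PAS domains. In the presence of oxygen the prolyl hydroxylases encoded by the Egln genes, which use iron and 2-oxoglutarate, hydroxylate the alpha subunit, and the VHL protein binds the hydroxylated form and directs it to the proteasome. HIF1AN hydroxylates an asparagine of the alpha subunit and so blocks the binding of coactivators. When oxygen is short the alpha subunit is stable, pairs with ARNT and binds hypoxia response elements. Since oxygen controls HIF mostly at the protein level, an RNA array measures the transcripts of these genes and not the activity of the factor.

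Of the 9 genes, each counted by its brightest probe set, 1 rose in Colony cells (Egln3, FC value 12.4), 0 fell and 8 did not pass. A gene was called where the adjusted p of limma was under 0.05 and the fold change was over 2. Over all 14217 genes, 4.36% rose and 4.75% fell by this rule. By the adjusted p alone Egln3 and Hif1a were higher and Arnt was lower, where 12.9% of all genes were higher and 10.8% lower. The median log2 FC of the 9 genes was 0.20, and that of all genes 0.05. All Colony arrays lay above all A16 arrays for 5 of the 9 genes (Hif1a, Epas1, Egln1, Egln3 and Vhl), against 26.7% of all genes, and below them for 0 of the 9, against 20.9% of all genes. In the PLIER values, the other summary of the same arrays, the arrays were apart upwards for 4 genes, all of them among those 5 (Epas1 overlapped), and downwards for 2 (Arnt and Hif3a). The share over all genes was not taken in PLIER. These PLIER counts therefore have no background beside them and only describe the arrays.

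The sequences upstream of the 3 genes whose difference passed the adjusted p are shown because the core of the hypoxia response element, ACGTG or GCGTG, can be looked for in them. They are the 250 bases before the RefSeq start site on build GRCr8, in the direction of the gene, and capitals mark either core on either strand. The Egln3 stretch is chr6:77411016-77411265 on the minus strand, that of Hif1a chr6:98359648-98359897 on the plus strand and that of Arnt chr2:185686453-185686702 on the plus strand.
Egln3: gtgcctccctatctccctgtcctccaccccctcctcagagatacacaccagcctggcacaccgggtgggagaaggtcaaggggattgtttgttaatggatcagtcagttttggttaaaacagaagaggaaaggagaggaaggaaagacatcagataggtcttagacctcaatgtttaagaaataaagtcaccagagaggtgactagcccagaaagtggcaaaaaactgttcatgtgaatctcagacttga
Hif1a: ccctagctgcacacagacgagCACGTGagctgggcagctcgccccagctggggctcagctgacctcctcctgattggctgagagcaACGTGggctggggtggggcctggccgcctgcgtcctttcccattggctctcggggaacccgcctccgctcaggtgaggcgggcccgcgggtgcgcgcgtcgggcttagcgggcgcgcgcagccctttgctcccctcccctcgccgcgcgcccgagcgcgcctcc
Arnt: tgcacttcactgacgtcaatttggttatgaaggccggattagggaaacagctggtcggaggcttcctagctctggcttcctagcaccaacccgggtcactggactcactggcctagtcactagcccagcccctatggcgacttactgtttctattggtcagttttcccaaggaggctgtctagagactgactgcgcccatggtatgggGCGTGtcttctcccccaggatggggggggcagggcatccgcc
The RefSeq windows of 300 bases, which run on for 50 bases past the start site, were searched for all members. The Hif1a window held ACGTG 3 times, and in the capitals CACGTG the match on the minus strand overlaps that on the plus strand. The Arnt window held GCGTG 1 time and the Egln1 window held each core 1 time. The window of Egln3, the gene with the largest difference, held neither core, as did those of Epas1, Arnt2, Egln2, Vhl and Hif1an and the first of both Hif3a windows, while the second held GCGTG 2 times. Over 33469 rat promoters of the same length, 41.64% held at least 1 of the cores, 19.25% ACGTG and 29.7% GCGTG. A match is a run of letters and not a bound site, and these windows say nothing about elements farther away.

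**Figure D1:**
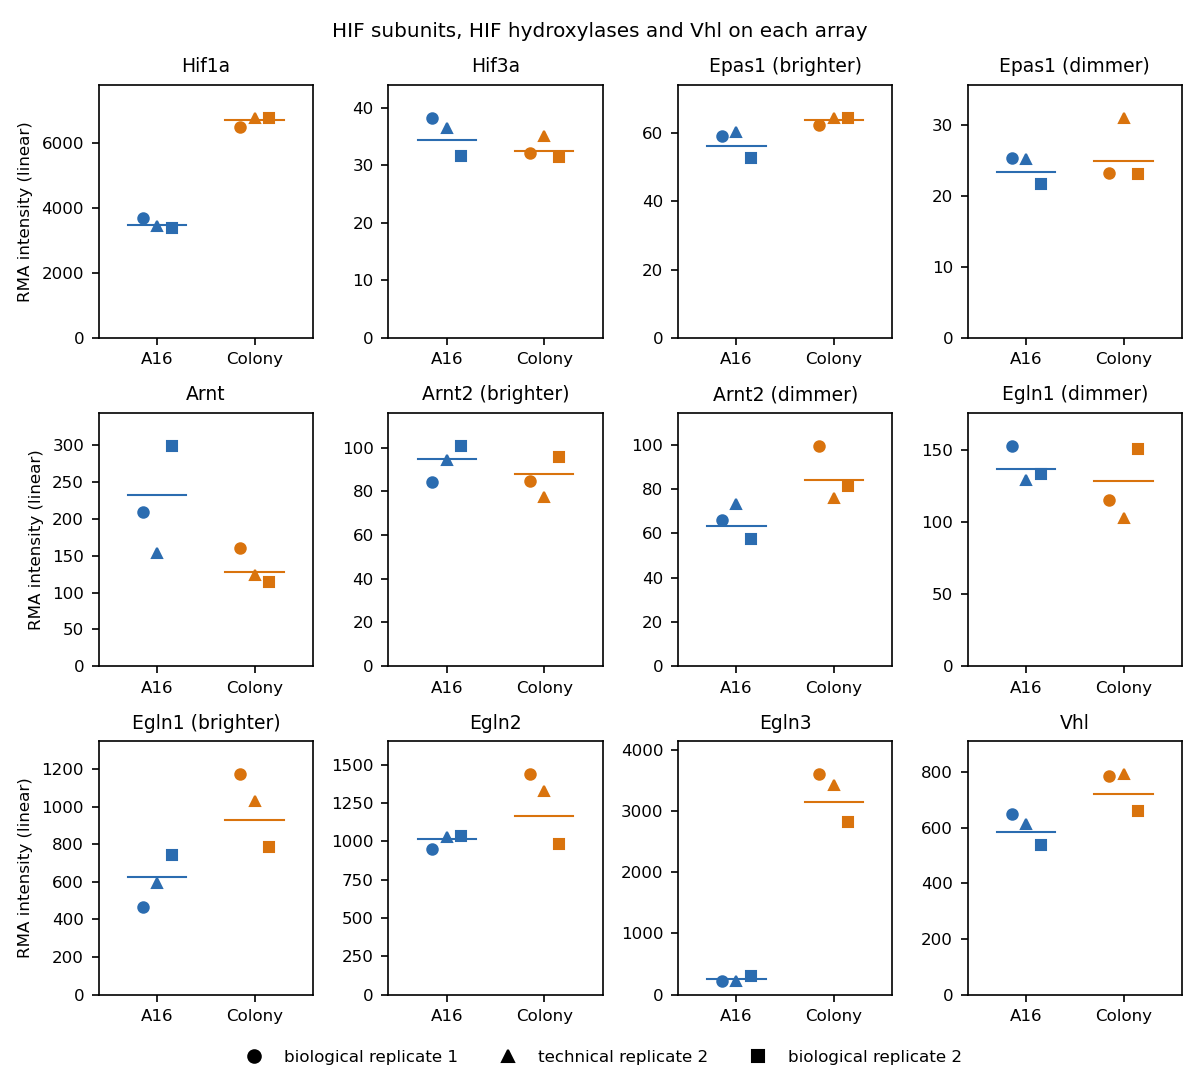
RMA intensity (linear scale from 0, a separate axis for each probe set) of the 12 probe sets on each of the 6 arrays, with A16 in blue and Colony in orange; lines are the group means over 2 cultures on the log2 scale, and brighter and dimmer name the probe sets of a gene that has a pair. Egln3 runs from 214 to 297 in A16 and from 2825 to 3599 in Colony, and Hif1a from 3386 to 3698 and from 6496 to 6777, while the groups overlap for Hif3a, Arnt, Egln2, the brighter probe set of Arnt2 and the dimmer probe sets of Epas1 and Egln1.

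Hif1a encodes the alpha subunit that drives the acute response to low oxygen. Its probe set (1387076_at, chromosome 6) was among the brightest of the arrays, above 98.4% of the tested probe sets. RMA intensity was 3698 in A16 biological replicate 1, 3429 in the technical array and 3386 in biological replicate 2. In Colony cells it was 6496, 6769 and 6777 in the same order. The 3 Colony arrays stood close together and each was well above every A16 array. The mean log2 intensity was 11.76 ± 0.05 (SD, n = 2) in A16 and 12.71 ± 0.02 (SD, n = 2) in Colony cells. The log2 FC was 0.95 (SE 0.13, 95% interval 0.65 to 1.25), an FC value of 1.93 with an adjusted p of 0.00272 in limma. Hif1a therefore passed the adjusted p but not the fold threshold. PLIER gave 0.89 (adjusted p 0.00567 in limma), and the fit without Colony replicate 2 gave 0.93 (adjusted p 0.0137). Over the 14 limma alternatives the log2 FC ran from 0.89 to 0.99, with an adjusted p under the threshold in each of them and a fold over 2 in 0 of them.

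Epas1 encodes HIF2 alpha, known from endothelium and from the kidney cells that make erythropoietin. Its brighter probe set (1369703_at) lay above only 37.7% of the probe sets. It gave 59.1, 60.4 and 52.6 in A16 and 62.2, 64.5 and 64.5 in Colony cells, again in the order biological replicate 1, technical array and biological replicate 2. These arrays were apart by less than 2 units of RMA intensity at the nearest point, and in PLIER they overlapped. It had a log2 FC of 0.19 (95% interval -0.13 to 0.51, adjusted p 0.393 in limma). PLIER gave 0.10, the fit without A16 replicate 2 also 0.10, and that without Colony replicate 2 0.18. The dimmer probe set (1398333_at) gave 21.7 to 25.4 in A16 and 23.2 to 31.1 in Colony cells, and its log2 FC of 0.09 (95% interval -0.27 to 0.45, adjusted p 0.740) changed sign in 3 alternatives and was 0.20 without Colony replicate 2. It lay above only 9.3% of the probe sets, where an array separates signal from background poorly.

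Hif3a encodes an alpha subunit with splice forms that restrain the other alpha subunits. Its probe set (1369838_at) gave 38.3, 36.5 and 31.6 in A16 and 32.1, 35.1 and 31.4 in Colony cells, and the groups overlapped. Colony minus A16 came to a log2 FC of -0.08 (95% interval -0.42 to 0.26, adjusted p 0.754 in limma), 0.0404 without A16 replicate 1 and -0.0346 without Colony replicate 2. In PLIER the A16 arrays gave 39.0, 38.1 and 50.5 and the Colony arrays 27.7, 33.7 and 28.2, which do not overlap, and the log2 FC of -0.41 had an adjusted p of 0.115 in limma. The probe set is a dim one, above 19.3% of all, so the values say little beyond the low signal.

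Arnt encodes the beta subunit that all HIF alpha subunits and the dioxin receptor pair with. It was the member with the largest difference towards lower values in Colony cells, and the least even within a group. Its probe set (1369244_at, chromosome 2) gave 209 in A16 biological replicate 1, 154 in the technical array and 299 in biological replicate 2. The Colony arrays gave 161, 125 and 115. Colony biological replicate 1 lay above the A16 technical array, so the groups overlapped by that pair. The mean log2 intensity was 7.86 ± 0.52 (SD, n = 2) in A16 and 6.99 ± 0.21 (SD, n = 2) in Colony cells. The log2 FC was -0.86 (SE 0.25, 95% interval -1.46 to -0.27), 1.82-fold higher in A16, with an adjusted p of 0.0495 in limma.

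This value stood at the edge of the threshold and A16 biological replicate 2 carried much of it. Without that replicate the log2 FC was -0.49 (adjusted p 0.152 in limma), and without A16 biological replicate 1 it was -1.23 (adjusted p 0.00216), past both thresholds. Without Colony replicate 1 it was -1.01 (adjusted p 0.0699) and without Colony replicate 2 it was -0.71 (adjusted p 0.186). In PLIER the A16 arrays gave 174, 136 and 308 and the Colony arrays 118, 86.9 and 82.5, which do not overlap. This gave a log2 FC of -1.13 (adjusted p 0.0476 in limma), so Arnt was called lower in that summary. Of the 14 limma alternatives 9 kept the adjusted p under 0.05 and 3 also passed the fold threshold, and the sign was negative in each.

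Arnt2, the beta partner best known from neurons, has a pair of probe sets that did not move alike. The brighter (1370611_at) gave 84.2, 94.5 and 101 in A16 and 84.7, 77.4 and 95.6 in Colony cells, which overlap, with a log2 FC of -0.11 (95% interval -0.46 to 0.25, adjusted p 0.678 in limma). This value was 0.0116 without Colony replicate 1 and -0.23 without Colony replicate 2. The dimmer (1373315_at) gave 65.9, 73.2 and 57.6 in A16 and 99.5, 76.2 and 81.2 in Colony cells, without overlap in RMA or PLIER. Its log2 FC was 0.41 (95% interval 0.06 to 0.76) and its adjusted p was 0.0974, while without Colony replicate 2 the log2 FC was 0.46. The mean of both probe sets had a log2 FC of 0.15 (adjusted p 0.440), so no call rests on the choice between them.

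**Figure D2:**
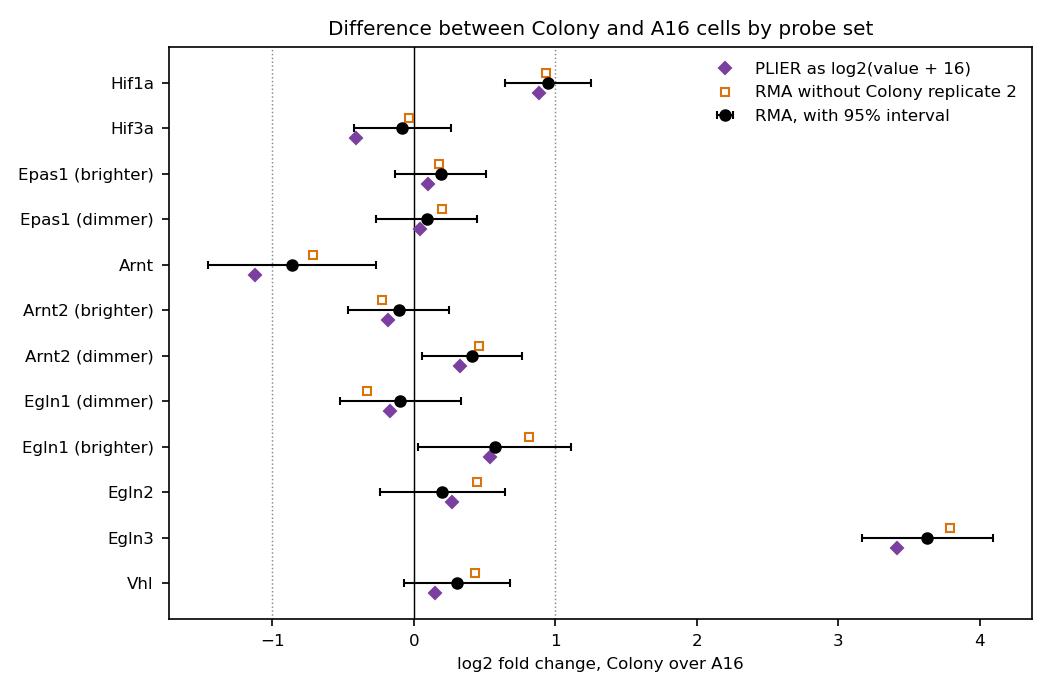
Log2 fold change of Colony over A16 cells for each of the 12 probe sets. Black points with bars are RMA with the 95% interval of limma, diamonds are PLIER and open squares are RMA without Colony replicate 2; the dotted lines stand at the fold threshold of 2. Egln3 at 3.63 is the only point past the fold threshold in RMA, Hif1a at 0.95 lies just inside it, and Arnt is at -0.86 in RMA and -1.13 in PLIER.

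The prolyl hydroxylases differed from each other in what their probe sets showed. Egln3 encodes PHD3, an enzyme whose own gene is known as a HIF target and which is also tied to apoptosis of neurons deprived of growth factor. Its probe set (1368174_at, chromosome 6) gave 222 in A16 biological replicate 1, 214 in the technical array and 297 in biological replicate 2. In Colony cells it gave 3599, 3430 and 2825. The lowest Colony array was thus far above the highest A16 array. The mean log2 intensity was 7.99 ± 0.32 (SD, n = 2) in A16 and 11.62 ± 0.22 (SD, n = 2) in Colony cells. The log2 FC was 3.63 (SE 0.19, 95% interval 3.17 to 4.09), an FC value of 12.4 with an adjusted p of 6.44e-05 in limma.

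PLIER gave the same picture for Egln3, with 211, 229 and 275 in A16 and 3080, 3114 and 2511 in Colony cells (log2 FC 3.42, adjusted p 0.000179 in limma). Colony replicate 2, whose labels disagree, held the lowest of the Colony values, and without it the log2 FC was 3.79 (adjusted p 0.000275). Over the 14 limma alternatives the log2 FC ran from 3.41 to 3.85 and Egln3 was called in each of them.

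Egln1 encodes PHD2, the main prolyl hydroxylase of HIF1 alpha in most cells. Its brighter probe set (1389207_at) gave 466, 592 and 742 in A16 and 1172, 1029 and 785 in Colony cells. The arrays did not overlap, but the biological replicates of number 2 lay next to each other, at 742 and 785. Egln1 had here a log2 FC of 0.57 (SE 0.23, 95% interval 0.03 to 1.11), an FC value of 1.49 with an adjusted p of 0.127 in limma. Where the technical arrays were averaged with biological replicate 2 the log2 FC was 0.88 (adjusted p 0.0147 in limma). Without A16 replicate 2 it was 0.82 (adjusted p 0.0380) and without Colony replicate 2 it was 0.81 (adjusted p 0.0693), but without A16 replicate 1 it was 0.32 (adjusted p 0.394) and without Colony replicate 1 it was 0.33 (adjusted p 0.418). The dimmer probe set (1375262_at) gave 153, 129 and 133 in A16 and 115, 103 and 151 in Colony cells, which overlap. Its log2 FC was -0.10 (95% interval -0.52 to 0.33), or 0.14 without Colony replicate 1 and -0.33 without Colony replicate 2. The probe sets of Egln1 thus disagree in sign, and their mean was at 0.24 (adjusted p 0.245 in limma).

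Egln2 encodes PHD1. Its probe set (1373794_at) gave 952, 1030 and 1034 in A16 and 1436, 1329 and 981 in Colony cells. Colony replicate 2 lay inside the range of A16 while the other Colony arrays lay above it. For Egln2 the log2 FC was 0.20 (95% interval -0.24 to 0.64, adjusted p 0.512 in limma) and without Colony replicate 2 it was 0.45 (adjusted p 0.135). Without Colony replicate 1 the sign turned, at -0.0453 (adjusted p 0.899).

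Vhl, the recognition subunit of the ubiquitin ligase, gave 650, 615 and 539 in A16 and 786, 792 and 658 in Colony cells (1368076_at, chromosome 4). The groups were apart, by 658 over 650 at the nearest point. For Vhl the log2 FC was 0.30 (SE 0.16, 95% interval -0.07 to 0.68), an FC value of 1.23 with an adjusted p of 0.233 in limma. PLIER gave 0.15, and leaving out each replicate gave 0.17 (without Colony replicate 1) to 0.43 (without Colony replicate 2). In both groups biological replicate 2 was the lowest of the 3 arrays.

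**Figure D3:**
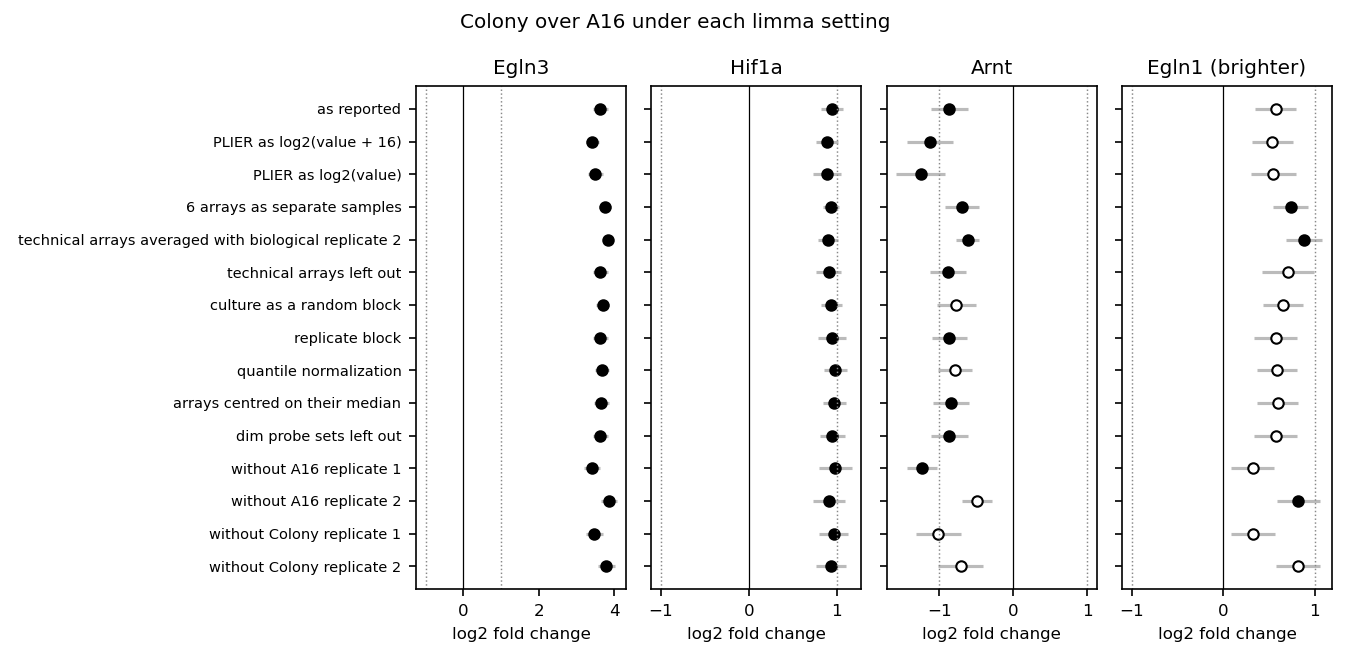
Log2 fold change of Colony over A16 for Egln3, Hif1a, Arnt and the brighter Egln1 probe set under the main setting and 14 alternatives, with bars of 1 SE. Filled points have an adjusted p under 0.05 in limma and the dotted lines stand at the fold threshold of 2; Egln3 is filled throughout between 3.41 and 3.85, Hif1a is filled throughout between 0.89 and 0.99, and Arnt and Egln1 change between filled and open.

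The genes whose profile over the 6 arrays was most like that of Egln3 were Plcd4, a phospholipase C (root mean square difference 0.230 in log2 intensity relative to the A16 mean), Thrb, a thyroid hormone receptor (0.263), and C1h16orf54 (0.268), out of 13974 candidate genes. Plcd4 ran from 44.9 to 57.0 in A16 and from 598 to 681 in Colony cells. The genes most like Hif1a were Hsdl2 (0.0237), Tsnax (0.0451) and Zfand5 (0.0463). Hsdl2 ran from 486 to 545 in A16 and from 941 to 990 in Colony cells. These lists are descriptions over the same 6 arrays. Hif1a, Egln3 and Epas1 are on chromosome 6, whose 602 measured genes had a median log2 FC of 0.09, against 0.05 for all genes, and the 935 genes of chromosome 2, which holds Arnt, had a median of 0.07. The part of the karyotype in the values of single genes was not tested.

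Around the switch, the list of HIF cofactors and of the machinery that degrades HIF held 1 called gene. Of 22 listed genes 20 were measured, of which 1 rose, 0 fell and 19 did not pass, with a median log2 FC of -0.02. For this list and those that follow, 4.36% of all genes rose and 4.75% fell by the same rule. The gene that rose was Commd1, whose protein is known to bind HIF1 alpha and to act in copper and NF-kappaB control. It ran from 513 to 560 in A16 and from 993 to 1271 in Colony cells (log2 FC 1.07, SE 0.13, adjusted p 0.00169 in limma). The next in size was Usp20, a deubiquitinase that takes ubiquitin off HIF1 alpha, with a log2 FC of 0.91 (adjusted p 0.00557), under the fold threshold, while the mean of its 3 probe sets was at 0.46. By the adjusted p alone 4 of the 20 were higher and 2 lower, against 12.9% and 10.8% of all genes. Those not yet named were chosen after their values were seen. Of these the coactivator Ep300 (log2 FC 0.54) and Cited2 (0.63) were higher, and the ubiquitin ligases Siah2 (-0.50) and Mdm2 (-0.80) were lower.

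Of 14 other bHLH-PAS factors and coactivators 13 were measured, of which 1 rose, 0 fell and 12 did not pass (median log2 FC 0.08). Sim2, a bHLH-PAS factor that pairs with ARNT, ran from 345 to 395 in A16 and from 1456 to 1853 in Colony cells. Its log2 FC was 2.19 (SE 0.15, FC value 4.57) with an adjusted p of 0.000170 in limma. Ncoa1, a steroid receptor coactivator, had a log2 FC of 0.89 (adjusted p 0.00363), under the fold threshold, and the mean of its 3 probe sets was at 0.66. The clock factors Npas2 (log2 FC 0.81) and Bmal1 (-0.59), chosen after their values were seen, also passed the adjusted p alone. By that rule 3 of the 13 were higher and 1 lower, against 12.9% and 10.8% of all genes.

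Of 39 other oxygenases that use iron and 2-oxoglutarate as the Egln enzymes do, 36 were measured, of which 3 rose, 4 fell and 29 did not pass (median log2 FC 0.14). Phyh, which starts the alpha oxidation of phytanic acid in peroxisomes, ran from 120 to 146 in A16 and from 866 to 926 in Colony cells (log2 FC 2.73, SE 0.14, adjusted p 5.42e-05 in limma). Its second probe set moved less, and the mean of both gave 2.02. Kdm7a, a histone demethylase, ran from 164 to 224 and from 707 to 756 (log2 FC 1.93, SE 0.17, adjusted p 0.000529). Kdm6b, a demethylase of a repressive histone mark, ran from 226 to 256 in A16 and from 66.4 to 95.9 in Colony cells (log2 FC -1.49, SE 0.17, adjusted p 0.00135). P4ha2, an alpha subunit of the collagen prolyl 4-hydroxylase, ran from 1668 to 1826 and from 641 to 804 (log2 FC -1.25, SE 0.14, adjusted p 0.00138), but PLIER gave -0.98 and the mean of both its probe sets -0.92, under the fold threshold. The other called genes, chosen after their values were seen, were the related subunits P4ha1 (log2 FC -1.19) and P4ha3 (log2 FC -1.13), which fell, and Asph (log2 FC 1.09), a hydroxylase of EGF-like domains, which rose. The call of Asph is lost without Colony replicate 2 (0.93) and with the mean of its probe sets (0.43). By the adjusted p alone 8 of the 36 were higher and 6 lower, against 12.9% and 10.8% of all genes.

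Of 36 genes known as HIF targets 35 were measured, of which 1 rose, 5 fell and 29 did not pass (median log2 FC -0.02). Over all genes 4.36% rose and 4.75% fell. Mxi1, a MYC antagonist, ran from 627 to 783 in A16 and from 1835 to 1953 in Colony cells (log2 FC 1.44, SE 0.15, adjusted p 0.000932 in limma), but the mean of both its probe sets was at 0.95, under the fold threshold. Bhlhe40, a transcriptional repressor of the circadian clock, ran from 132 to 214 and from 27.2 to 38.7 (log2 FC -2.49, SE 0.23, adjusted p 0.000572). Lox, which crosslinks collagen and elastin, ran from 10290 to 11113 in A16 and from 2086 to 2586 in Colony cells (log2 FC -2.17, SE 0.14, adjusted p 0.000141). Loxl2, a related enzyme, had a log2 FC of -1.84 (SE 0.24, adjusted p 0.00253). The other 2 that fell were P4ha1 and P4ha2, which are also counted among the oxygenases, P4ha2 with the same limit as there.

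By the adjusted p of limma alone 5 of the 35 targets were higher and 11 lower, the called ones included, against 12.9% and 10.8% of all genes. The other targets missed it, among them Vegfa (log2 FC 0.07, SE 0.20) and Stc1 (log2 FC 0.10, SE 0.16), picked after their values were seen. Under the fold threshold but past the adjusted p of limma, and chosen after their values were seen, the glucose transporter Slc2a1 (log2 FC 0.57), the mitophagy receptor Bnip3 (0.70), the oxidoreductase Ero1a (0.64) and Ccng2 (0.82) were higher in Colony cells. Car9 (log2 FC -0.73), Ankrd37 (-0.90), Ndrg1 (-0.73), the kinase Pdk1 of pyruvate dehydrogenase (-0.92), Ddit4 (-0.64) and Mif (-0.51) were lower. The glycolytic genes Ldha (log2 FC -0.02, SE 0.13) and Pgk1 (log2 FC -0.03, SE 0.13) were picked after their values were seen as well, and their groups overlapped. Other glycolytic genes of the list were not alike. Hk2 (log2 FC -1.19), Aldoa (-0.46) and Eno1 (-0.29) were lower. All Colony arrays of Eno1 lay below all of A16, while the groups overlapped for Hk2 and Aldoa. Pfkfb3 (log2 FC 0.62) and Pfkfb4 (0.29) were higher, each with all Colony arrays above all of A16, and Aldoc was at -0.02. All of these missed the adjusted p. Of the 35 targets, 9 had all Colony arrays above all of A16 and 12 below, against 26.7% and 20.9% of all genes. Egln3, itself known as a HIF target, is not in this list.

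**Figure D4:**
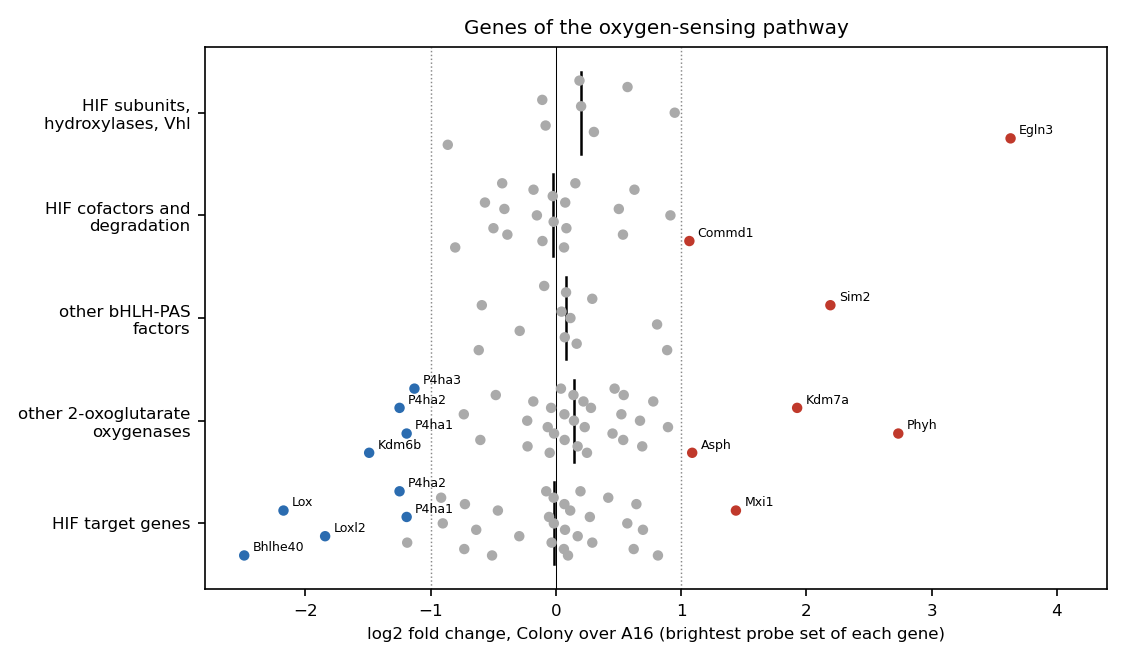
Log2 fold change of Colony over A16 cells for each measured gene of 5 lists, by the brightest probe set; red genes rose, blue genes fell and grey genes did not pass, black bars are medians and the dotted lines stand at the fold threshold of 2. Egln3 is the point farthest to the right, the list medians lie between -0.02 and 0.20, and P4ha1 and P4ha2 appear both among the oxygenases and among the targets.

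Median RMA intensity ran from 97.6 to 101 over the 6 arrays. The SD of the log2 difference over all tested probe sets was 0.17 between the A16 technical array and biological replicate 1 and 0.22 between the same arrays of the Colony group, 0.24 to 0.33 between cultures of a group and 0.67 to 0.76 between groups. Of the 12 fibroblast markers 9 were above the array median on all 6 arrays and Fap, Lum and Dcn were below it. Their summed intensity was 81627 to 92260 in A16 and 58074 to 62799 in Colony cells, and 4 of them fell (Col1a1, Col3a1, Thy1 and Fn1). By the adjusted p alone Col1a2 (log2 FC -0.61) and Lum (-0.78) were also lower, while Pdgfra (0.55) was higher. All Colony arrays lay above all A16 arrays for 3 of the 12 (Pdgfra, Vim and S100a4) and below them for 6, against 26.7% and 20.9% of all genes. The sum of 7 leukocyte and macrophage markers was 1144 to 1306 in A16 and 1502 to 1603 in Colony cells. Csf1r rose (log2 FC 4.01), with 34.4 to 44.9 in A16 and 538 to 824 in Colony cells. Cd14 was bright in both groups, at 891 to 1020 and 534 to 697, and lower in Colony cells by the adjusted p alone (log2 FC -0.56). Ptprc, which defines leukocytes, stayed dim at 34.7 to 38.4 and 36.8 to 42.2. The sum of 5 endothelial markers was 164 to 177 and 189 to 227, with 0 called. Emcn was dim but higher in Colony cells by the adjusted p alone, at 24.1 to 25.1 and 33.4 to 38.7 (log2 FC 0.55). The sum of 7 epithelial markers was 939 to 1043 and 3180 to 3934. Most of this sum was Krt8, at 669 to 794 and 2891 to 3668, which rose (log2 FC 2.13). Cdh1 was dim but higher in Colony cells by the adjusted p alone, at 26.5 to 30.6 and 44.9 to 49.0 (log2 FC 0.74). Epcam was at 22.6 to 26.4 and 21.9 to 22.9. The part of other cells in the results above was not tested, and in bulk RNA fewer cells of a type and less RNA per cell cannot be told apart.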

How the data were processed

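RNA of F111 A16 and Colony cells was measured on Affymetrix Rat Genome arrays. The authors scanned the arrays with GeneChip Operating Software, summarised the probe sets with RMA and PLIER in Avadis and deposited linear intensity values. For neither method is a version given in the sources used here. A log2 scale had been allowed for, but the deposited values were linear, so log2 was taken with nothing added. The lowest PLIER value was 16.0 on every array, and PLIER was taken as log2(value + 16) and as log2(value). Depth does not apply to arrays, and the number of cultures limits the precision.

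The members and the gene lists were chosen with earlier results of these data known. Symbols of 20758 probe sets were updated by gene identifier and of 2 by accession with the RefSeq table of GRCr8; 20826 probe sets had 1 symbol, 436 several and 9780 none. Where a gene had several probe sets, the brightest stood for it. After 57 controls were left out, 31042 probe sets were fitted with lmFit and eBayes of limma 3.58.1 (R 4.3.3, prior degrees of freedom 4.76), with technical arrays averaged into biological replicate 1 and Benjamini-Hochberg adjustment over all 31042; all adjusted p-values are from this tool unless another is named. Intervals are at 95%. A simulation with known changes was used to test the scripts. Tables and figures were made with Python 3.11.15.

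The text names all members, up to 4 called genes of each other list by size (or the largest 2 where fewer than 2 were called), and the 3 genes with the smallest root mean square difference from Egln3 and Hif1a, leaving out symbols that begin with LOC or RGD; exceptions are stated. Replicate numbers were not used to pair the samples in the main fit. The deviations of replicate 1 from the group means correlated at -0.15 between the groups. With so few cultures this cannot show whether those of the same number were handled together. The labels give no scan date, so no batch was tested. Alternatives were PLIER, other treatments of the technical arrays, the replicate number as a block, quantile or median scaling, a filter that left out the lowest 25% of probe sets, leaving out each replicate, the test of the paper, and the mean of all probe sets of a gene.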

Additional observations from a re-analysis of the deposited data

How the results depend on the processing

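Egln3 was called in all 14 limma alternatives, and Hif1a passed the adjusted p and missed the fold threshold in the same 14. With PLIER as log2(value + 16) or as log2(value) 2 members were called, since Arnt was added at a log2 FC of -1.13 and -1.25. Leaving out each replicate gave 1 to 2 called members (2 without A16 replicate 1, Arnt at -1.23) and 1 to 2 called HIF cofactors (2 without the same replicate). The methods' t-test on the cultures, after Benjamini-Hochberg, called 0 members and 0 of all probe sets, with Egln3 at 3.63 and an adjusted p of 0.128. In that test 2383 probe sets had an unadjusted p under 0.05 together with a fold over 2. With limma 3045 probe sets were called, and 3017 to 3688 in its alternatives that kept all cultures. Values that changed sign were all small: with the technical arrays left out, the dimmer Epas1 probe set was at -0.0149, and leaving out each replicate gave -0.0205 to 0.20 for it, -0.20 to 0.0404 for Hif3a, -0.23 to 0.0116 for the brighter Arnt2, -0.33 to 0.14 for the dimmer Egln1 and -0.0453 to 0.45 for Egln2. The causes were not tested.

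With the replicate block 3121 probe sets and 1 member were called; with the numbers crossed between groups, added after seeing the data, 3135 probe sets and 1 member. The replicate block changed no call of a member. With the mean of all probe sets of a gene, 1 member was called. Leaving out a replicate leaves 1 culture in its group, which is then assumed to vary like the other group. Probe sets near the background, such as those of Hif3a and Epas1, limit what their values can show.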
